A study of Mus musculus with 12 samples.

Results

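Liver RNA from 3 mice labelled Iqgap2 knockout (KO) at 24 months, taken from hepatic tumors, was compared with normal liver RNA from 3 mice labelled wild-type (WT) at 24 months. These 6 arrays, 1 for each animal, were taken from the 12 arrays of the series by their labels alone, and all 18194 genes named by a probe set of their own were compared. The other 6 arrays came from livers labelled KO 6 months and WT 6 months, 3 of each. All 12 animals were described as males of 129J background, kept on regular diet without any treatment, and the KO animals lacked Iqgap2 in every tissue. For each group the labels list biological replicates 1 to 3, and values are given below in that order as log2 RMA intensities, which are normalised probe brightness on a log2 scale.

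IQGAP2 is a scaffold protein of the liver that binds calmodulin and the small GTPases Cdc42 and Rac1, and mice without it develop hepatocellular carcinoma late in life. Hepatocytes release the acute phase proteins into blood when cytokines such as IL-6 reach them, they store zinc in metallothioneins, and in male and female mice they express different sets of steroid and drug metabolising enzymes under the pattern of growth hormone release. Kupffer cells are the resident macrophages of the liver, which clear particles from blood and present antigen.

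The gene that was deleted went against the label of the tumor arrays. Iqgap2 was 12.15, 12.05 and 12.15 in the arrays labelled KO 24 months tumor and 12.28, 12.30 and 11.92 in the WT 24 months arrays, while its mean was 8.29 ± 0.34 (SD, n = 3) in KO 6 months and 8.32 ± 0.07 in WT 6 months. For Iqgap2 the difference between both groups labelled 24 months was −0.05 (SE 0.16, 95% interval −0.39 to 0.30, limma adjusted p = 0.908). Afp, the fetal albumin-like protein that liver tumors often secrete, was 6.11, 6.25 and 6.27 in the arrays labelled KO 24 months tumor and 6.20, 7.62 and 5.85 in WT 24 months, with a WT 6 months mean of 12.79. The Afp difference depended on the probe set, at −0.35 for the one used and between −1.52 and 0.17 for the others. The probe set at −1.52 averaged 4.62 in the arrays labelled KO 24 months tumor, 6.14 in WT 24 months and 12.75 in WT 6 months. Low Iqgap2 together with high Afp was thus seen in the WT 6 months group. For this reason 2 readings are kept side by side. As labelled, the comparison sets Iqgap2 knockout tumors against normal livers of the same age. If the labels KO 24 months tumor and WT 6 months were exchanged, it sets young against old WT liver, and every value called higher or lower in the tumor arrays is a value of young WT liver. The choice between these readings was not tested, and the arrays are named by their labels below.

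Further markers of tumor and tissue were read as a check of the labels. The mean level over 15 measured target genes of beta-catenin, the nuclear effector of Wnt signalling, lay between 6.75 and 6.96 in the 3 arrays labelled KO 24 months tumor, between 6.91 and 7.20 in WT 24 months and between 9.50 and 9.60 in WT 6 months. None of the 15 passed the adjusted p between the groups labelled 24 months, in either direction. Lef1, a transcription factor of the Wnt pathway, differed by 0.15, the Wnt feedback gene Nkd1 by −0.0049 and cyclin D1 (Ccnd1) by −1.12 (adjusted p = 0.201), and Igfbp2, an IGF-binding protein, by 0.17. The hepatocyte defining genes were bright in both groups, with Alb, the main plasma protein of the liver, at 15.07 to 15.12 in the arrays labelled KO 24 months tumor and 15.14 to 15.19 in WT 24 months. Among the 11 measured, Apob, the structural protein of VLDL, was 12.12, 12.10 and 11.33 against 13.00, 13.13 and 13.42. Apob passed the adjusted p (−1.34, SE 0.25, adjusted p = 0.0469), as did 0.231% of all genes in the lower direction. The biliary keratin Krt19 was 5.72 and 5.83 on average. Eif2s3y, a Y-linked gene, was between 9.33 and 9.93 in all 6 arrays but 4.63, 6.94 and 6.88 in the WT 6 months livers.

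**Figure D1:**
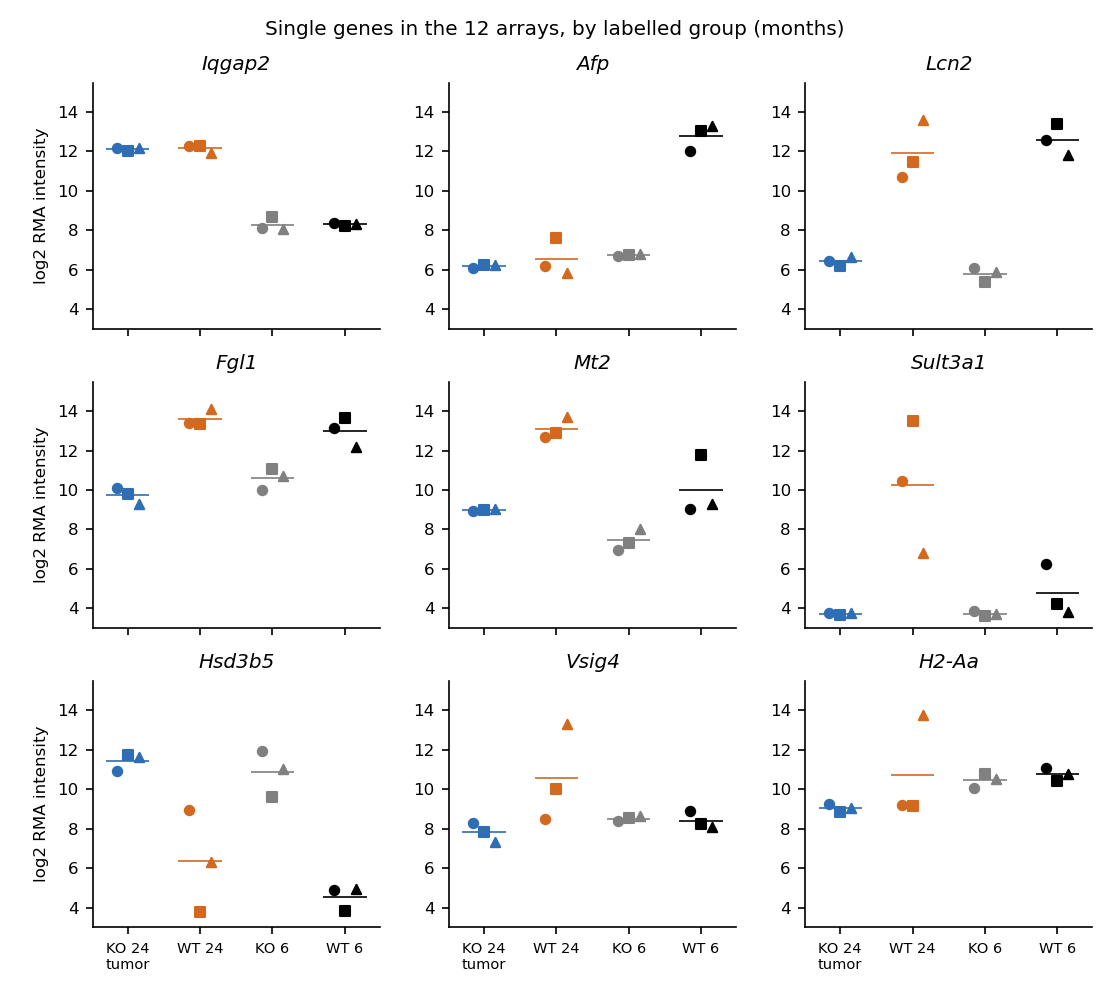
Log2 RMA intensity of 9 genes in the 12 arrays, by labelled group (x axis); circles, squares and triangles are replicates 1, 2 and 3 and lines are group means. Iqgap2 was high and Afp low in both groups labelled 24 months, Lcn2, Fgl1 and Mt2 separated them, and Sult3a1, Hsd3b5, Vsig4 and H2-Aa were spread widely over the 3 WT 24 months arrays.

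Of the IQGAP family, Iqgap1, the ubiquitous paralogue, was 7.76, 7.83 and 7.69 in the arrays labelled KO 24 months tumor and 7.98, 8.53 and 10.35 in WT 24 months (−1.19, SE 0.44, adjusted p = 0.208). Its highest value was in WT 24 months replicate 3. Iqgap3, linked to dividing cells, was 4.71 and 4.61 on average. None of the 9 measured scaffolds and partners, among them Cdc42, Rac1 and Ctnnb1, passed the adjusted p.

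Between the groups 26 genes passed a fold of 3 and an adjusted p of 0.05 in the limma fit of all 12 arrays: 9 were higher in the arrays labelled KO 24 months tumor (0.0495% of the genes tested) and 17 were lower (0.0934%). Without the fold, 62 genes were higher (0.341%) and 42 lower (0.231%) at the adjusted p, and 3119 had an unadjusted p under 0.05. The median difference over all genes was 0.04. All 26 had groups that did not overlap, as had 2556 genes in the higher direction (14.0%) and 1424 in the lower (7.83%). With 3 arrays against 3 no exact permutation test can give a p below 0.1. The p-values therefore rest on the variance that limma shares between genes and groups. The fit took 1 variance per gene for all 4 groups. Yet 528 genes had an SD over 1 log2 in WT 24 months, beside 12 to 165 in the other groups. For genes that spread mainly within WT 24 months, the SEs and p-values printed here tend to be too small. With the 6 arrays only, 5 genes were called.

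Lcn2, an iron-binding lipocalin that hepatocytes and neutrophils secrete in inflammation, was the most strongly lowered acute phase gene. Lcn2 was 6.42, 6.20 and 6.66 in the arrays labelled KO 24 months tumor and 10.71, 11.48 and 13.59 in WT 24 months. Lcn2 was thus 45.1-fold lower in the former (−5.50, SE 0.60, adjusted p = 0.00565). The lowest WT 24 months array was still far above the highest tumor-labelled array, and Lcn2 was also low in KO 6 months (mean 5.79) and high in WT 6 months (12.59).

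Fgl1, a fibrinogen-like protein released by hepatocytes, was 10.13, 9.79 and 9.31 against 13.38, 13.33 and 14.14, a difference of −3.87 (SE 0.39, adjusted p = 0.00464). For Fgl1 the groups were several log2 units apart. Apcs, serum amyloid P and the major acute phase protein of mice, was 12.98, 12.53 and 12.27 against 13.89, 13.88 and 14.19 (−1.39, SE 0.18, adjusted p = 0.0149). Cebpd, a transcription factor of the acute phase, was 7.49, 7.26 and 7.61 against 8.26, 9.27 and 9.59 (−1.59, SE 0.28, adjusted p = 0.0398). Its second probe set was dim, at 4.37 against 4.66 on average, and differed by −0.29.

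Of 27 measured acute phase proteins and regulators, 3 were lower at the adjusted p (Lcn2, Apcs and Cebpd) and none was higher. Over all genes, 0.231% were lower and 0.341% higher at the adjusted p. The median difference of the list was −0.53. In 18 of the 27 every WT 24 months array was above every tumor-labelled array, beside 7.83% of all genes, and in none was it the other way round. Haptoglobin (Hp), which binds free hemoglobin, was 14.16, 14.18 and 13.79 against 14.50, 14.47 and 14.78 (adjusted p = 0.0948), and Lbp, which presents bacterial lipopolysaccharide to immune cells, was 11.08, 11.04 and 11.05 against 11.80, 12.12 and 12.29 (adjusted p = 0.0561). The serum amyloid A genes did not follow this order. Saa2 was 9.14, 8.73 and 8.96 in the tumor-labelled arrays but 10.73, 7.76 and 14.32 in WT 24 months, so that replicate 2 lay below and replicate 3 far above them (−1.99, SE 1.17, adjusted p = 0.404). Saa1 had the same order, with 12.51, 8.98 and 14.39 in WT 24 months, and since the Saa genes are near-identical copies their probe sets may share signal. Without WT 24 months replicate 3 the median of the acute phase list was −0.29.

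Metallothioneins bind zinc and copper and are induced by metals, glucocorticoids and IL-6. Mt2 lay between 8.96 and 9.03 in the arrays labelled KO 24 months tumor and was 12.71, 12.89 and 13.68 in WT 24 months (−4.10, SE 0.58, adjusted p = 0.0216), without overlap. Mt1 was 11.33, 11.02 and 10.68 against 13.86, 13.97 and 14.42, again without overlap, but its difference of −3.07 (SE 0.66) had an adjusted p of 0.0693. Mt3 and Mt4, which belong to brain and squamous epithelium, were at 5.16 and 3.67 on average in the tumor-labelled arrays and differed by 0.03 and −0.17. The zinc importer Slc39a14, induced by IL-6, was 10.72, 10.79 and 11.04 against 11.28, 11.75 and 11.69 (adjusted p = 0.165). Of the 9 genes of metallothioneins and zinc handling, Mt2 was lower at the adjusted p (0.231% of all genes) and none was higher (0.341%).

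The bases upstream of Mt1, Mt2 and Lcn2 are shown because these genes carried the largest acute phase and metal-linked differences, though Mt1 did not pass the adjusted p. Letters that match elements known from responses to metals and cytokines were searched for in them. Each sequence is the 250 bases before the annotated start from RefSeq on GRCm38.p6, written 5′ to 3′ in the direction of the gene. For Mt1 (chr8:94178839-94179088, + strand) and Mt2 (chr8:94172368-94172617, + strand) the capitals mark the core of the metal response element, TGCACNC or TGCGCNC on either strand. For Lcn2 (chr2:32387740-32387989, − strand) they mark a C/EBP element, TTGCNNAA. No marked stretches overlap.
Mt1: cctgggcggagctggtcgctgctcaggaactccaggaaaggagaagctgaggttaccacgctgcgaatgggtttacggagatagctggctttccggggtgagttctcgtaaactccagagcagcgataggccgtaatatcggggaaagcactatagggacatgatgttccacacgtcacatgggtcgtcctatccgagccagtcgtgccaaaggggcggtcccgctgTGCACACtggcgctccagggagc
Mt2: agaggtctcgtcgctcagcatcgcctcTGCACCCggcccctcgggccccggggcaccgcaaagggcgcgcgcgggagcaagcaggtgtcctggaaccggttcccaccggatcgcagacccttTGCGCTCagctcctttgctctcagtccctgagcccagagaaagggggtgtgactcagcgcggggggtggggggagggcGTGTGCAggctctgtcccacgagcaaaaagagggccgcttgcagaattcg
Lcn2: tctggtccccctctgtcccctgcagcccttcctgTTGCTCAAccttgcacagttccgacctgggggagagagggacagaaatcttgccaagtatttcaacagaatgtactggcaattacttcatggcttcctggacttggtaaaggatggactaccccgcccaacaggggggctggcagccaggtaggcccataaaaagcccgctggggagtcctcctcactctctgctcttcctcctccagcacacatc
The Mt2 window held 3 metal response cores and the Mt1 window 1, and 21.4% of all 32851 promoter windows held at least 1. The window of Lcn2 held 1 C/EBP element and no STAT element (TTCNNNGAA). Among the 18 windows of the 13 genes called lower that the table lists, 6 held the C/EBP element (33.3% beside 9.56% of all), 2 the metal response core (11.1%), 1 the STAT element (5.56% beside 7.02%), 3 the heat shock element GAANNTTC (16.7% beside 6.69%), 2 the D-box TTANNTAA (11.1% beside 5.43%) and none the E-box CACGTG (6.02% of all). Among the 6 windows of genes called higher, 1 held the STAT element (16.7%) and none held any of the other elements. Several of the windows of genes called lower belong to 1 gene with alternative starts, and Rad51b gave more than 1 of those with the C/EBP element. The shares describe letters in a window, not sites in use.

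Igfbp1, the IGF-binding protein that rises in fasting, was 10.14, 8.67 and 8.08 against 12.09, 13.51 and 13.31 (−4.01, SE 0.51, adjusted p = 0.0149). Of the 15 measured genes of the growth hormone and IGF axis, Igfbp1 was lower (0.231% of all genes) and Igfals was higher (0.341%). Igfals, which carries IGF1 in plasma, was 10.94, 10.97 and 10.98 against 9.84 to 10.30 (0.91, adjusted p = 0.0419). Both groups were tight for Igfals. Of the 18 genes of the glucocorticoid and fasting response, Igfbp1 and Mt2 were lower (0.231% of all genes) and none was higher. The list median was −0.62, or −0.32 without WT 24 months replicate 2. Sgk1, Gadd45b, G6pc, Tat and Pck1 were among the 9 that were lower without overlap (7.83% of all genes). The median excess of the list over the tumor-labelled mean was 0.14, 0.95 and 0.50 in WT 24 months replicates 1, 2 and 3.

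Rad51b, which acts in DNA repair, was 4.42, 4.20 and 4.31 against 8.13, 8.14 and 8.95 (−4.10, SE 0.45, adjusted p = 0.00565), but its second probe set was at 4.24 and 4.22 on average and did not separate the groups. Nebl, an actin-binding protein, was 6.09, 4.68 and 5.27 against 9.50, 9.80 and 8.04 (−3.77, adjusted p = 0.0209), and its other 2 probe sets had means between 3.62 and 3.91 in both groups. The difference of Rad51b and of Nebl was therefore seen with 1 probe set each. Acnat2, which conjugates fatty acids to amino acids, was 2.76 lower, and Cyp26a1, which breaks down retinoic acid, was 9.04, 9.23 and 8.81 against 11.36, 11.76 and 9.99 (−2.01, adjusted p = 0.0469). Tafa2, a chemokine-like secreted protein, fell by 2.48 and the lysosomal nuclease Dnase2a by 1.62. Cyp3a13, a cytochrome P450 below the fold of 3, was among the most precise, with 11.12, 10.98 and 11.16 against 12.17, 12.64 and 12.40 (−1.32, SE 0.13, adjusted p = 0.00464). Grn, the lysosomal growth factor progranulin, fell by 1.34 and the tetraspanin Cd9 by 1.26.

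Further lower genes are known from immune responses. Irf7, the regulator of type I interferon induction, was 7.63, 7.33 and 7.22 against 11.25, 8.94 and 10.21 (−2.74, SE 0.42, adjusted p = 0.0253). Jchain, the chain that joins polymeric IgA and IgM in plasma cells, was 6.35, 6.36 and 5.72 against 8.40, 8.18 and 7.17 (−1.77, adjusted p = 0.0419). Igkv8-30, an immunoglobulin kappa variable segment whose probe set may also read related segments, was 6.20, 6.63 and 5.53 against 8.70, 8.44 and 7.88 (−2.22, adjusted p = 0.0193). These plasma cell transcripts were higher in WT 24 months replicates 1 and 2 than in replicate 3, the reverse of the macrophage genes below. Ighm was 7.73, 7.64 and 7.97 against 10.33, 10.13 and 9.46 (adjusted p = 0.224). The B cell genes did not share 1 pattern. Pax5, Cd79a and Ms4a1 were between 3.82 and 5.84 in all 6 arrays. Cd79b, Cd22 and Blnk differed by −0.09, −0.45 and −1.09, but by 0.55, 0.06 and −0.50 without WT 24 months replicate 3. Of the 13 B lymphocyte and plasma cell markers, Jchain alone passed the adjusted p (0.231% of all genes lower). In replicate 3, 2 of the 13 were apart (over 1 log2 from both other replicates) and higher (2.52% of all genes), and 1 was apart and lower (0.352%). Rgs1, a G protein regulator of activated leukocytes, fell by 1.73 and Clca3a1, known from lymphatic endothelium, by 2.31.

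Obp2a led the 9 genes called higher in the tumor-labelled arrays. It is a lipocalin of the odorant-binding family. Obp2a was 10.58, 11.33 and 10.86 against 7.02, 5.37 and 7.38 (4.33, SE 0.72, adjusted p = 0.0355), and 6.98 in KO 6 months and 4.88 in WT 6 months. The tumor-labelled arrays thus had the highest Obp2a of the 4 groups. Hsd3b2 was 10.39, 10.79 and 11.01 against 9.13, 7.35 and 8.68 (2.34, adjusted p = 0.0419), and Hsd3b3, of the same family of steroid dehydrogenases, was 11.68, 11.65 and 11.86 against 9.97, 10.43 and 10.35 (1.48, adjusted p = 0.025). The copies of this family are very similar in sequence, and their probe sets may share signal.

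Aox3, an aldehyde oxidase of hepatocytes, was 13.45, 13.72 and 13.63 against 12.24, 11.06 and 12.48 (1.67, adjusted p = 0.0419). Car1, the carbonic anhydrase of red cells, was 8.03, 7.84 and 8.06 against 6.89, 5.52 and 6.00 (1.84, adjusted p = 0.0253), and Alas2, the erythroid enzyme of heme synthesis, was 10.80, 10.42 and 10.63 against 8.94, 7.48 and 9.75 (adjusted p = 0.0928). Hemoglobin genes and the membrane genes Slc4a1 (−0.24) and Epb42 (0.23) differed far less. Of the 8 erythroid genes Car1 was higher at the adjusted p (0.341% of all genes) and none was lower. Nrep was 2.08 higher, the serpin Serpina9 1.94, Keg1 1.64, cyclin F (Ccnf) 1.64 and chondromodulin (Cnmd) 1.60. Below the fold of 3, Cyp1a2, the caffeine-metabolising cytochrome P450, was 0.69 higher and Cpt2 of mitochondrial fatty acid import 0.63. The keratin Krt23 was 1.44 higher, the 1 higher gene of 11 biliary and progenitor markers (0.341% of all genes). Phlda1, a pleckstrin homology domain protein, was 1.47 higher.

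**Figure D2:**
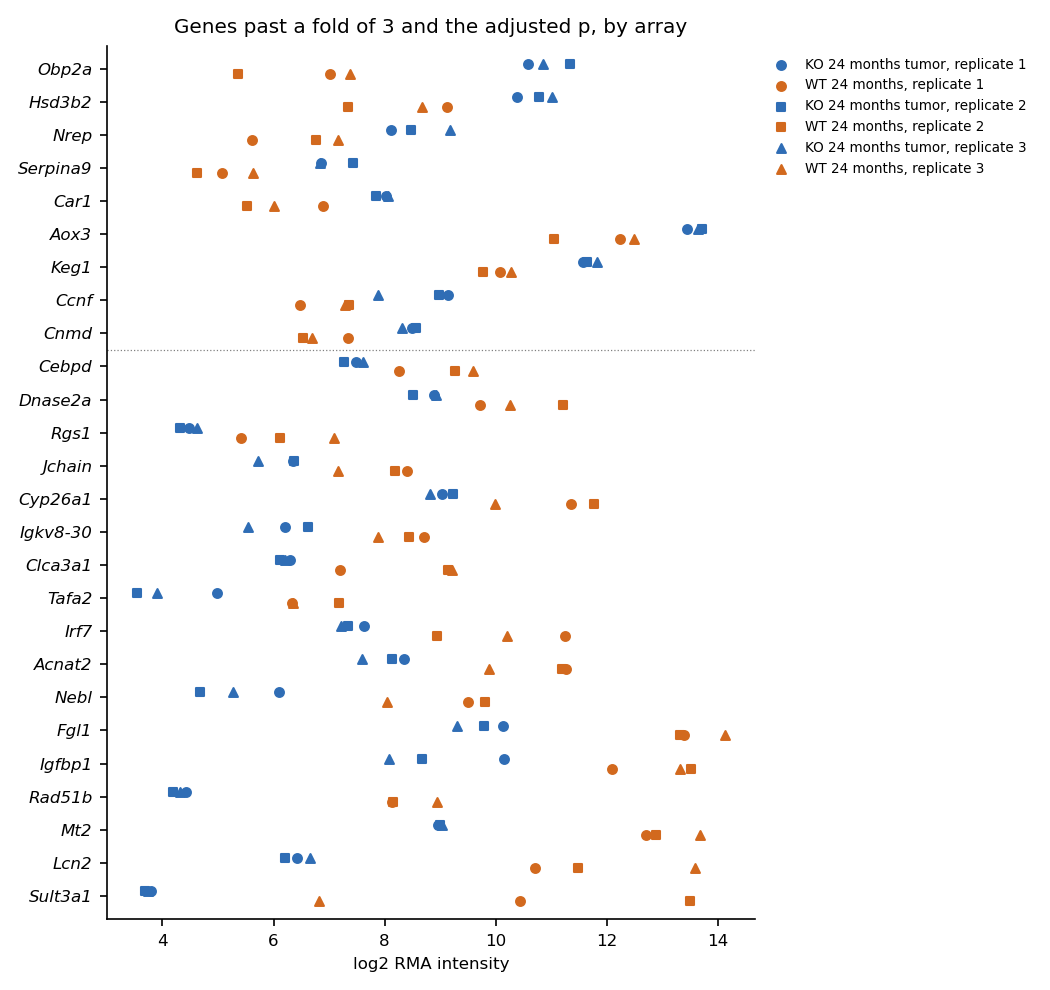
Log2 RMA intensity (x axis) of the 26 genes past a fold of 3 and an adjusted p of 0.05 in each of the 6 arrays; blue marks are arrays labelled KO 24 months tumor, orange marks WT 24 months, and circles, squares and triangles are replicates 1, 2 and 3. The groups did not overlap for any of the 26, and the 3 orange marks spread widely for Sult3a1 (6.82 to 13.51), Lcn2 and Irf7.

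The called genes were set against the other arrays as a description. The KO 6 months mean was nearer to the tumor-labelled mean than to the WT 24 months mean for 21 of the 26 genes. For 8 of them the WT 6 months mean was nearer to the tumor-labelled mean. The same count over all genes was not made. Over all genes, KO 6 months arrays had 92 to 280 genes more than 1 log2 apart from a tumor-labelled array and 233 to 1153 from a WT 24 months array. Whether the called genes differ in this from all genes was therefore not tested. For 6 of the 26 genes there were 7 further probe sets, of which 6 differed in the same direction as the one used. Among these 6, the difference was small for Nebl (−0.09 and −0.21) and Cebpd (−0.29). The second probe set of Rad51b differed in the other direction.

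The spread within WT 24 months was far larger than that of the arrays it was compared with. The median SD of the 3 arrays over all genes was 0.169 log2 in WT 24 months and 0.131 in the arrays labelled KO 24 months tumor, beside 0.131 in KO 6 months and 0.141 in WT 6 months. The tail differed more: 528 genes had an SD over 1 log2 in WT 24 months against 12 in the tumor-labelled arrays, and 79 against 0 had an SD over 2. The SD was larger in WT 24 months for 62.8% of genes. Pairs of tumor-labelled arrays had 40 to 82 genes more than 1 log2 apart, while the pairs within WT 24 months had 523, 1081 and 1124. WT 24 months replicate 1 lay nearest to the tumor-labelled arrays, with 245 to 302 such genes, then replicate 2 with 641 to 725 and replicate 3 with 1182 to 1311. WT 24 months arrays therefore differed from each other in more genes than replicate 1 differed from a tumor-labelled array.

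**Figure D3:**
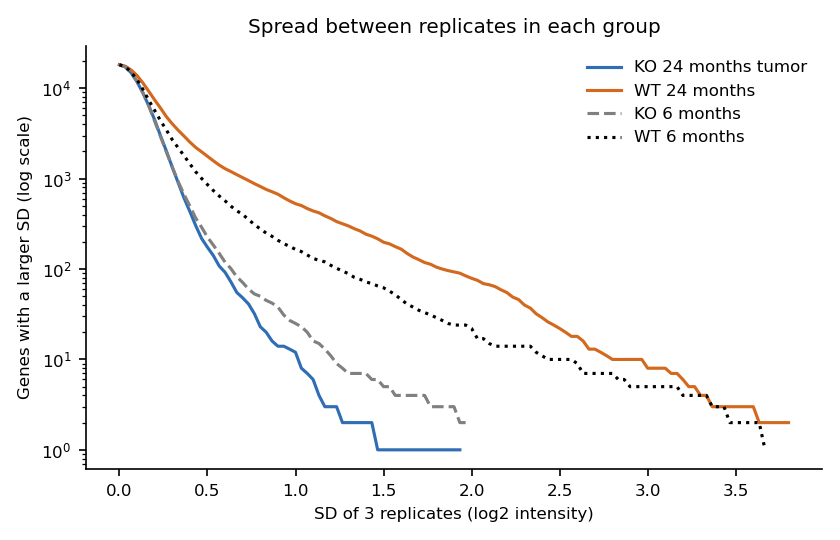
Number of genes (y axis, log scale) whose SD over the 3 replicates of a group exceeds the value on the x axis (log2 intensity), for each labelled group. The WT 24 months line runs above that of the arrays labelled KO 24 months tumor, with 528 against 12 genes at an SD of 1.

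A replicate was counted as apart for a gene where it was over 1 log2 from both others and those were within 0.5 log2 of each other. In WT 24 months, replicate 3 was apart and higher for 458 genes (2.52% of all) and lower for 64 (0.352%), replicate 2 was higher for 70 (0.385%) and lower for 69 (0.379%), and replicate 1 was higher for 28 (0.154%) and lower for 50 (0.275%). In the tumor-labelled arrays the totals were 8, 6 and 20. The genes that stood apart differed in kind between the replicates.

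WT 24 months replicate 3 was high in genes of macrophages and antigen presentation. Vsig4, the complement receptor of Kupffer cells, was 8.30, 7.83 and 7.31 in the arrays labelled KO 24 months tumor and 8.49, 9.998 and 13.29 in WT 24 months (−2.78, SE 0.88, adjusted p = 0.164). H2-Aa, an MHC class II chain, was 9.28, 8.86 and 9.05 against 9.21, 9.16 and 13.77, and Cd74, its chaperone, was 8.93, 8.58 and 8.38 against 8.83, 8.84 and 13.45. For class II genes the first 2 WT 24 months arrays were thus at the level of the tumor-labelled arrays. Ccl8, a monocyte chemokine, was 5.17, 5.17 and 10.73 in WT 24 months and 4.98 to 5.05 in the others. The neutrophil protease Prtn3 was 5.50, 5.72 and 10.79, and the immediate early gene Fos was 7.07, 6.89 and 11.26, while the tumor-labelled arrays were at 5.28 to 5.70 for Prtn3 and 5.28 to 7.07 for Fos. Of 19 immediate early genes 5 were apart and higher in replicate 3 (2.52% of all genes) and none passed the adjusted p. Cxcl13, the B cell attracting chemokine, was 6.09, 7.80 and 13.04.

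Of 19 measured Kupffer cell and macrophage markers none passed the adjusted p in either direction, although the list median was −1.999 and every WT 24 months array was above every tumor-labelled array for 12 of them (7.83% of all genes). The median excess of the WT 24 months arrays over the tumor-labelled mean was 0.52 in replicate 1, 1.33 in replicate 2 and 3.97 in replicate 3, and the SD within WT 24 months exceeded 1 log2 for 16 of the 19. The complement genes C1qa, C1qb and C1qc, made by macrophages, had this order in common, with C1qb at 8.25, 8.09 and 7.61 against 8.71, 9.98 and 12.7. Cd163, the hemoglobin scavenger receptor, ran the other way at 7.65, 8.65 and 5.57 in WT 24 months, and Trem2 and Gpnmb of scar-associated macrophages reached 7.39 and 5.31 at most in WT 24 months. Without replicate 3 the list median was −0.90, and without replicate 1 it was −2.75. In such bulk RNA, fewer macrophages and less RNA per macrophage cannot be told apart.

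The other immune lists shared this dependence on replicate 3. Of 17 T lymphocyte and natural killer markers 10 were apart and higher in replicate 3 (2.52% of all genes), among them Ccl5 at 6.01, 6.14 and 9.64 and Gzmb, a killer cell protease, at 4.86, 4.70 and 7.56, and none passed the adjusted p. The median of these 17 was 0.04 and 0.02 above the tumor-labelled mean in replicates 1 and 2 and 1.13 above it in replicate 3. Of 20 chemokines 5 were apart and higher in replicate 3 (2.52% of all genes) and none passed the adjusted p. Of 15 neutrophil markers Lcn2 was lower at the adjusted p (0.231% of all genes). S100a8 was 5.97, 6.58 and 5.04 against 7.15, 7.86 and 10.33 (adjusted p = 0.201). The granule genes Mpo, Elane and Ltf were below 6 in all 6 arrays.

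The list of interferon and antigen presentation genes also had its highest median in replicate 3 and its lowest in replicate 2. Single genes differed in this, and Irf7, Usp18 and Ifit1 were highest in replicate 1. Of 29 measured, Irf7 was lower at the adjusted p (0.231% of all genes) and none was higher. For 12 the WT 24 months arrays were all above the tumor-labelled ones (7.83% of all genes), and the median difference was −1.28. Usp18, the negative regulator of interferon signalling, was 6.05, 5.45 and 5.92 against 9.95, 7.24 and 8.93 (−2.90, SE 0.63, adjusted p = 0.074). Oas1a, an antiviral synthetase, was 7.44, 6.96 and 7.06 against 10.24, 7.81 and 10.83, and Ifit1 was 6.06, 5.23 and 5.57 against 8.33, 5.53 and 7.67. Replicates 1 and 3 were high in these genes and replicate 2 was lower than both. Replicate 2 lay within the tumor-labelled values for Ifit1 but above them for Oas1a and Usp18. The list median over the tumor-labelled mean was 0.99, 0.09 and 2.58 in replicates 1, 2 and 3, and the list median difference was −1.32, −1.87 and −0.41 without replicates 1, 2 and 3. Of the 29 genes, 7 were apart and higher in replicate 3 (2.52% of all genes) and 3 apart and lower in replicate 2 (0.379%).

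Within the WT 24 months group, replicate 2 was distinguished by genes that differ between the sexes. Sult3a1, a female-biased sulfotransferase, was 3.79, 3.68 and 3.74 in the arrays labelled KO 24 months tumor and 10.44, 13.51 and 6.82 in WT 24 months, a difference of −6.52 (SE 1.24, adjusted p = 0.0469) and the largest SD within WT 24 months among the 26 called genes (3.35). The tumor-labelled values lie near the low end of the intensity range, so its fold is not exact, and the difference was −6.43, −4.89 and −8.23 without replicates 1, 2 and 3. Sult1e1, the estrogen sulfotransferase, was 6.33, 6.15 and 5.72 against 9.03, 12.65 and 8.65 (adjusted p = 0.186). Cyp3a16 was 7.19 in replicate 2 and between 3.07 and 3.30 in the other 5 arrays. Of 17 measured female-biased liver genes Sult3a1 was lower at the adjusted p (0.231% of all genes) and none was higher. For 9 the WT 24 months arrays were all above the tumor-labelled ones (7.83% of all genes) and for 2 all below (14.0%). The list median was −1.86, or −1.14 without replicate 2. The excess over the tumor-labelled mean was 1.07, 2.83 and 0.63 in replicates 1, 2 and 3.

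Male-biased genes ran in the opposite direction. Over the 17 measured, the mean level was 10.21, 8.43 and 10.28 in WT 24 months replicates 1, 2 and 3. In the WT 6 months arrays it was 9.50, 8.94 and 9.11, so a low level was not particular to replicate 2. Hsd3b5, a male-specific steroid reductase, was 10.90, 11.76 and 11.65 in the arrays labelled KO 24 months tumor and 8.93, 3.8 and 6.31 in WT 24 months (5.09, SE 1.01, adjusted p = 0.0549). Elovl3, a fatty acid elongase, was 11.52, 12.27 and 11.67 against 9.77, 3.85 and 8.48, and the fatty acid hydroxylase Cyp4a12a was 13.07, 13.05 and 13.24 against 10.77, 7.46 and 11.66 (3.16, SE 0.77, adjusted p = 0.0958). For Cyp4a12a the difference was 3.557, 1.905 and 4.005 without replicates 1, 2 and 3 (adjusted p = 0.0437, 0.00633 and 0.0231). The major urinary proteins Mup10 and Mup3, pheromone carriers with near-identical copies, were 5.14 and 8.32 in replicate 2, while Mup10 was 11.72 and 11.81 and Mup3 13.85 and 13.80 in replicates 1 and 3. Of 17 male-biased genes none passed the adjusted p, 10 were higher without overlap in the tumor-labelled arrays (14.0% of all genes), 6 were apart and lower in replicate 2 (0.379%), and the list median was 0.87, or 0.59 without replicate 2 and 1.32 without replicate 3. In replicate 2 the Y-linked gene Eif2s3y was 9.93 and Xist, the RNA of the inactive X, was 5.46 in it, against 9.49 and 5.45 in the second tumor-labelled array.

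Replicate 2 also stood apart in oncofetal and heat shock genes. Of 20 measured oncofetal and tumor markers 7 were apart and higher in it (0.385% of all genes), with Bex1 at 3.88, 8.19 and 3.93, Gpc3 at 5.45, 8.37 and 5.07, Cpe at 4.86, 8.71 and 5.23 and Afp as given above. The tumor-labelled arrays were at 3.70 to 3.91 for Bex1, 5.01 to 5.10 for Gpc3 and 3.87 to 4.16 for Cpe. No gene of this list passed the adjusted p, and its median was −0.37, or −0.10 without replicate 2. Of 12 heat shock genes 4 were apart and lower in replicate 2 (0.379% of all genes) and none passed the adjusted p. Among these 4 was the inducible chaperone Hspa1b at 11.04, 7.98 and 10.93 against 8.86, 8.45 and 9.07. Replicate 3 had its own lower genes: Cyp4a14, a fatty acid hydroxylase under PPAR-alpha, was 12.96, 13.10 and 9.22, and Hamp2, a hepcidin copy, was 12.21, 12.38 and 9.72.

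**Figure D4:**
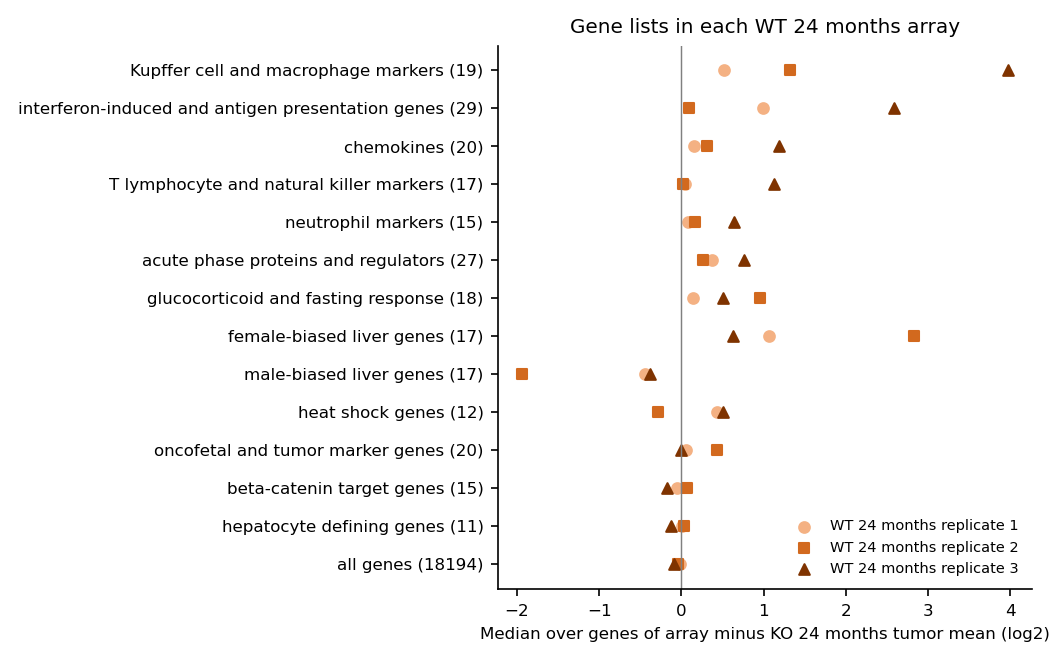
Median over the genes of a list of each WT 24 months array minus the mean of the arrays labelled KO 24 months tumor (x axis, log2), for 13 lists with the number of measured genes in brackets and for all genes. Replicate 3 lies far to the right for macrophage (3.97) and for interferon and antigen presentation (2.58) genes. Replicate 2 lies far to the right for female-biased genes (2.83) and to the left for male-biased genes (−1.93). Hepatocyte defining genes and all genes lie close to 0.

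In the remaining lists the counts at the adjusted p ran from 0 to 2, a background of 0.341% of all genes higher and 0.231% lower giving few calls in lists of this size. None passed in either direction among 18 circadian clock genes, 17 NRF2 targets, 14 periportal genes, 20 genes of cholesterol synthesis, 28 of fatty acid synthesis, 23 of the amino acid and ER stress response, 32 of the cell cycle and p53, 22 endothelial, 21 stellate cell and 28 urea cycle and amino acid genes. Of 17 pericentral genes Cyp1a2 was higher, and of 20 genes of fatty acid oxidation Cpt2 was higher. Of 21 cytochromes P450 and xenobiotic receptors Cyp1a2 was higher and Cyp3a13 and Cyp26a1 were lower, of 9 sulfotransferases Sult3a1 was lower, and of 15 genes of iron regulation Fgl1 was lower. The housekeeping genes Actb, Gapdh, Hprt and Gusb had adjusted p from 0.624 to 0.856. The 11 markers of organ capsule, fat and pancreas held no called gene.

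The number of calls depended on which WT 24 months array was present. Without replicate 1, 31 genes were called higher (0.170% of those tested) and 138 lower (0.758%), 24 of them among the 26; without replicate 2 the total was 40, with 13 of the 26, and without replicate 3 it was 41, with 20 of the 26. Without replicate 1, 10 of the 19 macrophage markers, Vsig4, Marco and Csf1r among them, were called lower, and Hsd3b5, Elovl3 and Cyp4a12a were called higher. Those calls rested on 2 arrays in WT 24 months. In all 3 of these fits 13 of the 26 were called: Fgl1, Lcn2, Mt2, Igfbp1, Rad51b, Nebl, Sult3a1, Acnat2, Irf7, Tafa2 and Igkv8-30 lower, and Hsd3b2 and Serpina9 higher. Lcn2 was −6.10, −5.72 and −4.66 and Fgl1 −3.99, −4.02 and −3.61 without replicates 1, 2 and 3. Leaving out an array labelled KO 24 months tumor kept 6, 1 and 4 of the 26 calls for replicates 1, 2 and 3, and Fgl1 alone was called in all 3 of those fits. Mt2, Acnat2, Irf7, Igkv8-30, Sult3a1, Hsd3b2 and Serpina9 lost the adjusted p in each of them, and Lcn2 and Rad51b lost it without replicate 2.

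**Figure D5:**
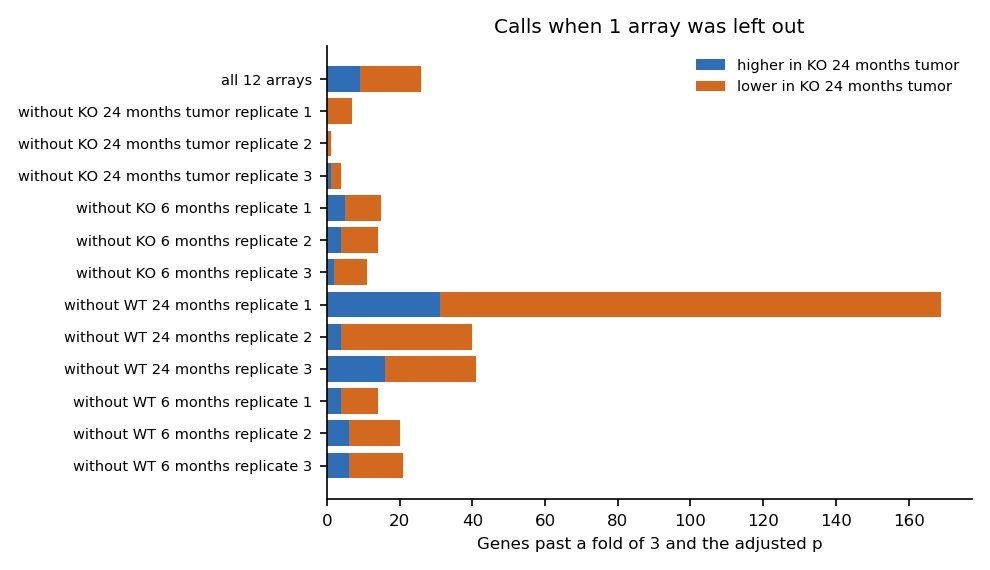
Number of genes past a fold of 3 and an adjusted p of 0.05 (x axis, from 0) with all 12 arrays and with each array left out; blue is higher and orange lower in the arrays labelled KO 24 months tumor. The total of 26 became 169 without WT 24 months replicate 1 and 1 to 7 without an array labelled KO 24 months tumor.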

How the data were processed

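Liver RNA of 12 mice was hybridised to 12 Affymetrix 3′ expression arrays for mouse, with no pooling stated. The authors deposited log2 intensities made by RMA (background correction, quantile normalisation and summary of each probe set) in the simpleaffy package, version not given in the sources used here. Quantile normalisation gives all arrays nearly the same distribution, so a shift shared by most genes would not be seen.

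Groups came from the labels. Of 45101 probe sets, 34958 named 1 gene through the platform annotation, 932 several and 9211 none; symbols were updated by gene ID, and the brightest probe set stood for each of 18194 genes. No genes were filtered out for low signal. The 4 group means were fitted over all 12 arrays with limma 3.58.1 in R 4.3.3, tested on simulated data, and adjusted by Benjamini-Hochberg over all genes. Called genes had a fold of at least 3 and an adjusted p of at most 0.05. Members of lists were counted as higher or lower at the adjusted p without a fold. The number of arrays limits the precision.

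The comparison, the members and the 37 lists (602 of 679 genes measured) were chosen with earlier results of these data known. Named were the IQGAP genes, Lcn2, Afp, every called gene, up to 4 members per list by smallest adjusted p and up to 4 by largest SD within WT 24 months, the 15 genes with the largest such SD, the 10 largest rises and falls called without an array that moved the count by over 1.5 times, housekeeping genes, and members of lists described in full; not all are printed. Of genes below the fold, Grn, Cd9, Phlda1 and Hsd3b3, and the Y-linked gene and Xist, were added after their values were seen. Alternatives were SAM as the study's methods name it, other fits, features and centrings, and leaving out each array. Promoter letters came from RefSeq (GRCm38.p6).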

Additional observations from a re-analysis of the deposited data

Results flagged for a closer look

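Probe sets that name no listed gene or several genes were not used in the comparison of genes, and 10 of them passed a fold of 3 and the adjusted p when limma was fitted to all probe sets. Of these, 7 name several genes. The 3 that read immunoglobulin kappa segments were lower in the arrays labelled KO 24 months tumor by 2.70 to 3.18 log2, 2 that read the class I genes H2-Q6 and H2-Q8 fell by 2.05 and 2.24, the one for Apol9a and Apol9b fell by 2.42 and the one for Slc22a30 and Slc22a29 by 1.97. Of the 3 without a listed gene, 1 was higher by 2.55 and 2 fell by 2.42. Which of the named genes gave the signal was not tested.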

How the results depend on the processing

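The calls between the groups changed with most settings, and Fgl1 was past the adjusted p in all 20 alternatives that refitted the genes. The count of genes called higher (9) was 28 at a fold of 2, 16 by SAM, 1 with the 6 arrays only, 5 with the replicate block, 4 with a trended and robust prior and 14 with housekeeping centring; that of genes called lower (17) was 27, 33, 4, 12, 12 and 45, and 11 over single probe sets and 10 over means of probe sets. At the adjusted p without a fold, the 62 higher and 42 lower genes became 227 and 100 by SAM, 1 and 4 with the 6 arrays only and 29 and 23 with the replicate block, and 93 were lower with housekeeping centring. With 1 array left out, called genes ranged from 0 to 31 higher and from 1 to 138 lower, and genes at the adjusted p from 0 to 436 and from 3 to 393. Lcn2 stayed between −6.10 and −4.66 with 1 array left out; its adjusted p was 0.0547 without KO 24 months tumor replicate 2 (−5.38) and 0.0751 with the 6 arrays only (−5.50). The difference of Iqgap2 ranged from −0.17 to 0.020 with 1 array left out, being 0.0079 without WT 24 months replicate 1 and 0.020 without replicate 2, and that of Afp from −0.70 to 0.18, the latter without replicate 2. The median SD within WT 24 months was 0.318 with housekeeping centring. Deviations from the group means of arrays with the same number correlated at −0.06, 0.02 and −0.02. These values show no pairing of animals by number, but with 3 arrays a group they cannot exclude one. The replicate block kept 16 of the 26 calls. Median centring moved the median of all genes to 0.09 and housekeeping centring to 0.06. For Afp and the called genes other than Lcn2, 320 comparisons with an alternative kept their direction and side of the threshold. Of the others, 195 kept the direction but lost the adjusted p and 1 changed sign. Iqgap2, which changed sign as given above, and Lcn2 were not in this count. The cause of these changes was not tested.

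The depth of an array is not defined by counts. With 3 arrays a group, many genes whose groups did not overlap missed the adjusted p, and genes near the low end of the intensity range have no resolved level.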
